A study of Mus musculus with 7 samples.

Results

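The interferon response genes studied here are 36 genes, from the ligand gene Ifnb1 and the transcription factor genes that carry its signal to the antiviral effectors they switch on. Open chromatin at these genes was read from ATAC-seq peak lists, ATAC-seq being an assay in which a transposase inserts adapters into accessible DNA. A peak belonged to the set when its midpoint lay inside the mm10 body of a member, or within 100 kb with that member as the nearest protein-coding gene. This gave 1427 of 975394 deposited peaks, which joined into 384 of 344401 regions. Members had 1 to 33 regions each, with a median of 9.5. The farthest member region lay 86282 bp from its gene, Ifi44, and 0 further regions had a member as nearest gene beyond 100 kb. Mx1 and Mx2 are transcribed pseudogenes in the annotation, so only regions inside their bodies counted.

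The cells were RAW264.7, a mouse monocyte-macrophage line that RANKL, the osteoclast-inducing cytokine, drives toward bone-resorbing osteoclasts. The study concerns BET proteins, which bind acetylated histones, and the transcription factor Myc in the first hours of that change. Untreated cells (2 libraries) were compared with cells given for 4 h either RANKL at 50 ng/ml (2 libraries), RANKL with the BET inhibitor I-BET at 500 nM (2 libraries), or I-BET at 500 nM without RANKL (1 library, labelled replicate 2). All groups were the same unmodified cell line, and each library came from 50000 cells. Whether the replicates are separate cultures is not stated in the labels, which also name bone marrow as the source. The libraries are bulk, so more cells with an open site and a more open site per cell cannot be told apart.

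Interferon beta binds its receptor on the cell surface, and the kinases Jak1 and Tyk2 then activate transcription factors, Stat2 among them. Stat2 and Irf9 are part of a complex that binds a DNA element, the ISRE, in front of interferon-stimulated genes. Irf1 acts at similar elements, and the GAS is another element found at interferon-induced genes. In macrophages a low level of interferon beta signalling is known to keep these genes poised, and RANKL is known to induce interferon beta, which restrains osteoclast formation.

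The promoters of members that the results turn on are printed to show where the ISRE lies relative to the gene start. RefSeq promoter entries (build GRCm38.p6, the assembly behind mm10) were found for 29 of 36 members, and Oas2, Mx1, Mx2, Usp18, Dhx58, Parp14 and Zbp1 had no entry. Where a gene has several starts in the table a peak or motif at any of them counts. The ISRE core searched was GAAA, any 2 bases, then GAAA, on both strands, and overlapping matches were all kept. In the 250 bases before the gene start it was present in 12 of 29 members (41.4%), against 3.48% of 17492 protein-coding genes. Each sequence runs 5′ to 3′ toward the gene start, and capitals mark the ISRE core.
Isg15, chr4:156200819-156201068, minus strand: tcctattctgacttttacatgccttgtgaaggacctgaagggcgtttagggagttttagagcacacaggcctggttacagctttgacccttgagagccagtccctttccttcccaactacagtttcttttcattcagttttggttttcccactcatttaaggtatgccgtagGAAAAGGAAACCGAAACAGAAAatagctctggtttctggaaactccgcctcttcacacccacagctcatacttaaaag
Ifit1, chr19:34640639-34640888, plus strand: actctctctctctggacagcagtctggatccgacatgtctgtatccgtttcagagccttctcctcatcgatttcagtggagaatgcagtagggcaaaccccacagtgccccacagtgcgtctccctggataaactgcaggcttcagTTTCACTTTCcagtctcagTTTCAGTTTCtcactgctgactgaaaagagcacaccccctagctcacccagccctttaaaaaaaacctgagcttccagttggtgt
Socs1, chr16:10785537-10785786, minus strand: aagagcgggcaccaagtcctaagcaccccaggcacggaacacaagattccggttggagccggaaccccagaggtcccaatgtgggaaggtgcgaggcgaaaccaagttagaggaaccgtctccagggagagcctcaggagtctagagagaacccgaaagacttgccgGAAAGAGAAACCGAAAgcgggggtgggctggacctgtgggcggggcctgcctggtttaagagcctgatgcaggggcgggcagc
Gbp3, chr3:142559794-142560043, plus strand: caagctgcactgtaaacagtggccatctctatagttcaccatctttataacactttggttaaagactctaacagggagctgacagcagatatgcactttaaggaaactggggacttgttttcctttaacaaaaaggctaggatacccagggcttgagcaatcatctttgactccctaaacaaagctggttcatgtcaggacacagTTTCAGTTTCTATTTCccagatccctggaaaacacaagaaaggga
Gbp5, chr3:142496684-142496933, plus strand: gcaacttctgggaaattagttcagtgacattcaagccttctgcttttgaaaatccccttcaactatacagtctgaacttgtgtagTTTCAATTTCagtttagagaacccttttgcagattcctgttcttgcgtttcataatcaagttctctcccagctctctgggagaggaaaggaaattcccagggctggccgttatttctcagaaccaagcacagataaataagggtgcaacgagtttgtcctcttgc
In Isg15, the gene of a ubiquitin-like protein joined to other proteins, 3 overlapping cores lay between bases -78 and -57 from the start. Ifit1, which encodes a binder of foreign RNA caps, had 2 between -104 and -76, and Socs1, a feedback inhibitor of JAK kinases, had 2 overlapping ones between -83 and -68. Gbp3 and Gbp5 encode guanylate binding proteins, GTPases that act on intracellular microbes. Gbp3 had 2 overlapping cores between -45 and -30, and Gbp5 had 1 at -165 to -156. The strongest peak near the Gbp3 start had its summit 640 to 663 bp past that start, apart from the cores. At Gbp5 the summit ran from -298 to 316 bp between libraries.

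The other motifs, searched the same way, were in fewer members. The GAS, TTCNNNGAA, was in 24.1% of members and 7.65% of all promoters, and the AP-1 site, TGANTCA, was in 20.7% and 7.19%. An NF-kB pattern (GGG, NN, TT, N, CC) was in 6.9% and 4.92%, the PU.1 core GAGGAAGT in 3.45% and 2.57%, and the E-box CACGTG in 3.45% and 7.61%. These matches describe letters and not binding, and no match says only that the letters are not in this window. The promoter of Irf1 held 1 GAS, at bases -90 to -82, marked here in capitals.
Irf1, chr11:53769764-53770013, plus strand: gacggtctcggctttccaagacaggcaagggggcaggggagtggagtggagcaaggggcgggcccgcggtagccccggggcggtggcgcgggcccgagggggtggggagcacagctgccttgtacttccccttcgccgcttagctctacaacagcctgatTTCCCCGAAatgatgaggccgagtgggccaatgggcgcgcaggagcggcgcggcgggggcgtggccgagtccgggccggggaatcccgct

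Gene starts of the members were open in untreated cells already. A peak within 1 kb of the start was present in all 7 libraries at 27 of the 29 members with an entry (93.1%), against 53.5% of 17492 protein-coding genes. The count by library was 27 and 29 members in untreated cells, 28 and 29 with RANKL, 27 and 29 with RANKL and I-BET, and 29 with I-BET. The 2 exceptions were Ifnb1 and Ifit3. For the 7 members without an entry, at least 1 end of the gene had a peak within 1 kb in all 7 libraries. Either end could meet this looser rule, and its share over all protein-coding genes was not counted, so nothing is read from it.

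How high each gene-start peak ranked in its own list was taken as the percentile of its deposited -log10 p, with 100% as the top. The authors' folds and -log10 values describe peaks within 1 list and do not measure change between lists. The transcription factor genes ranked high in every list. The Irf9 peak had a fold of 40.3 and 64 in untreated cells, 39.3 and 57.2 with RANKL, 50.2 and 48.2 with RANKL and I-BET, and 26 with I-BET, and its percentile stayed between 95.9% and 98.7%. At Stat2 the percentile ran from 94.5% to 97.8% and at Irf1 from 88.9% to 97.6%. At Irf7, the factor that amplifies type I interferon, it ran from 87.8% to 94.6%. Each of these ranges covers all 4 treatments. At Irf7 the 2 untreated libraries gave both the lowest and the highest percentile, so the treated libraries lay within the untreated spread there. Its strongest peak had the summit 31 to 68 bp past the start in the replicate 1 libraries. In the replicate 2 libraries the summit was 1304 to 1347 bp past the start, so these percentiles do not all describe the same position.

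**Figure D1:**
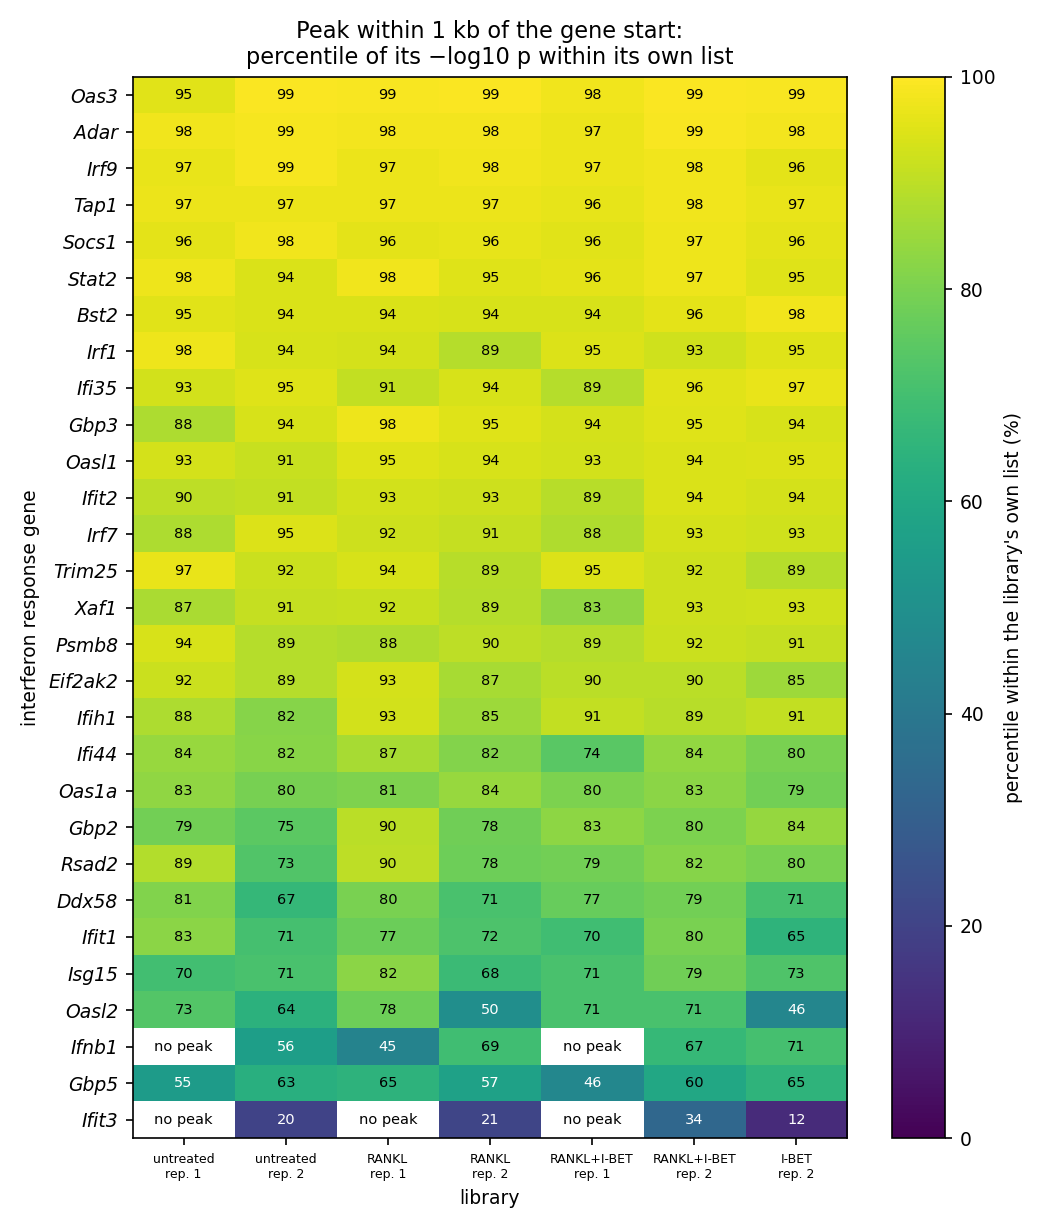
Percentile (0% to 100%) of the deposited -log10 p of the strongest peak within 1 kb of the gene start, within each library's own list, for the 29 members with a promoter entry (rows, by median) in the 7 libraries (columns). White cells have no peak, which occurs at Ifnb1 in 2 libraries and at Ifit3 in 3.

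Among sensors, effectors and feedback genes the ranks spread more widely. Oas3, of the family that makes the RNase L activator, had the highest median percentile (99.1%), although its strongest peak overlapping the window had its summit 1941 to 2024 bp downstream of the start. Adar, the RNA editing enzyme gene, came next with 98.2%, and the feedback gene Socs1 had 96% and the peptide transporter gene Tap1 96.9%. Rsad2, which encodes the antiviral enzyme viperin, had 79.8% (73% to 90.1%). Isg15 had 71.5% (68.3% to 82.5%), Ifit1 72% (64.9% to 82.6%) and the RNA sensor gene Ddx58 76.7% (66.8% to 81%). Members with an ISRE core had a median of 80.4% over 12 genes, and those without had 92.3% over 17, with ranges that overlap.

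The start of Ifit3, a partner of Ifit1 in RNA binding, was called in 4 libraries only. Its promoter held 2 ISRE cores, TTTCACTTTC and TTTCAGTTTC, at -156 to -147 and -122 to -113, read on the strand of the gene. The fold of that peak was 3.55 in untreated replicate 2, 3.29 in RANKL replicate 2, 2.69 in RANKL+I-BET replicate 2 and 2.84 in I-BET replicate 2. All 3 replicate 1 libraries lacked it, and all 4 replicate 2 libraries had it, whatever the treatment.

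Ifnb1 itself had a weaker gene-start peak, with its summit at -570 to -535 bp from the start on the strand of the gene. The fold was 6.4 in untreated replicate 2, 3.13 in RANKL replicate 1, 8.87 in RANKL replicate 2, 6.13 in RANKL+I-BET replicate 2 and 6.15 in I-BET replicate 2. Untreated replicate 1 and RANKL+I-BET replicate 1 had no peak there, so each of these groups held a library with and a library without it.

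Of the 384 member regions 77 (20.1%) were called in all 7 libraries, against 13.3% of the 314063 regions assigned to any gene. Of the 30 regions within 1 kb of a member's start 26 were called in all 7, a share that was not counted for the gene starts of other genes. Irf1 had most of the 77 shared regions with 10 of its 31, followed by Adar with 6 of 33, and by Trim25, a ubiquitin ligase gene of the RNA sensing pathway, and Usp18, which encodes the protease that removes ISG15, with 5 each. A region 7031 bp before Irf1, chr11:53760667-53765299, had folds of 45.4 and 56.5 in untreated cells, 35.9 and 44.7 with RANKL, 46.4 and 43.6 with RANKL and I-BET, and 30.7 with I-BET. Its percentile was 95.8% to 97.9%. At Mx1, a dynamin-like antiviral GTPase gene, the 1 shared region of its 5 was chr16:97462024-97463613, with percentiles of 64.9% to 81.1%. At 5 members, Stat2, Ifit1, Ifit3, Mx2 and Tap1, 0 regions were called in all 7, but at Stat2, Ifit1 and Tap1 the joined region over the start was called in all 7 and had its midpoint nearest to the neighbours Apof, Ifit1bl2 and Psmb9.

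The libraries differed in ways that touch every count that follows. The lists held 117175 to 166369 peaks, and reads per library are not given in the files, so depth is unknown. In untreated replicate 1, 25.3% of all peaks reached a -log10 q of 5, and in the other 6 lists 36.8% to 74% did. Of the 20 member regions called in 6 libraries, 17 lacked a peak in untreated replicate 1 alone, as did 76.1% of such regions over the genome. RANKL+I-BET replicate 2 called the most member regions, 262 against 126 to 177 in the others. Of these, 62 were called in no other library, 23.7% of its member regions, against 18.1% of all its regions. In untreated replicate 1 the share called in no other library was 20.6% of its member regions, against 42.9% of all its regions. Of 12 markers of lymphocytes, fibroblasts, osteoblasts, granulocytes and erythroid cells with a promoter entry, 3 (Ebf1, Lck and Klf1) had a gene-start peak in all 7 libraries and 2 (Mpo and Cd3e) in 0. The 4 macrophage markers with an entry, Lyz2, Cd68, Itgam and Fcgr1, had it in all 7. The part of these differences in the results was not tested.

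RANKL against untreated cells asks which interferon loci differ in called sites after 4 h of RANKL. At 8 of 36 members there were 13 regions, termed RANKL-only, that both RANKL libraries and neither of the untreated ones called, 4.66% of the 279 member regions called in either group. Over all assigned regions the share was 3.3%. Gbp5 had 3 of them, Gbp3, Oas3 and Ifi44 had 2 each, and Ifnb1, Ddx58, Oasl2 and Adar had 1 each. Without Gbp2, Gbp3 and Gbp5 the share was 3.11%. These genes were picked because they were seen to hold 5 of the 13, so the share had to fall and nothing is read from it. The order of members and background changed with the setting. With a -log10 q of at least 5 the RANKL-only share was 1.61% of member regions and 4.28% of all regions, with lists cut to equal length it was 2.85% and 2.75%, and with 50% of a region covered by peaks it was 7.14% (18 regions) and 3.68%. A region called in both groups can still differ in height, which peak lists do not show. With 2 libraries against 2 there are 3 splits, and an exact permutation test could not give a two-sided p below 0.333, so these counts carry no p-value.

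**Figure D2:**
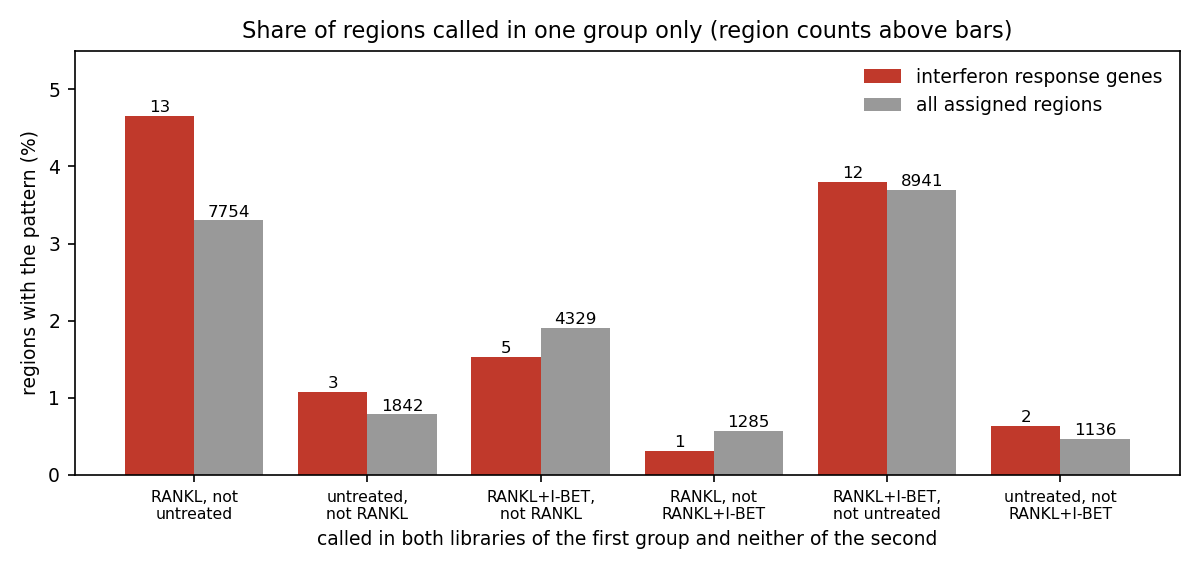
Share of regions (%, bars from 0) called in both libraries of the first named group and neither of the second, for interferon response genes (red) and for all assigned regions (grey), with the number of regions above each bar. The 13 RANKL-only member regions make 4.66% beside 3.3% of all regions, and the other 5 pairs of bars differ by less than 0.4 percentage points.

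Most RANKL-only member regions lost the pattern with a stricter cutoff, which happens when either RANKL library falls below it. With a -log10 q of at least 5 only 2 of the 13 were RANKL-only. These were a region 18391 bp before Gbp5 and a region downstream of Ifnb1. The distance from a RANKL-only region to the nearest untreated peak ran from 205 to 11101 bp with a median of 2321 bp, and 9 of the 13 lay more than 1 kb from one. The closest were at Oas3 (205 bp) and Gbp3 (248 bp).

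**Figure D3:**
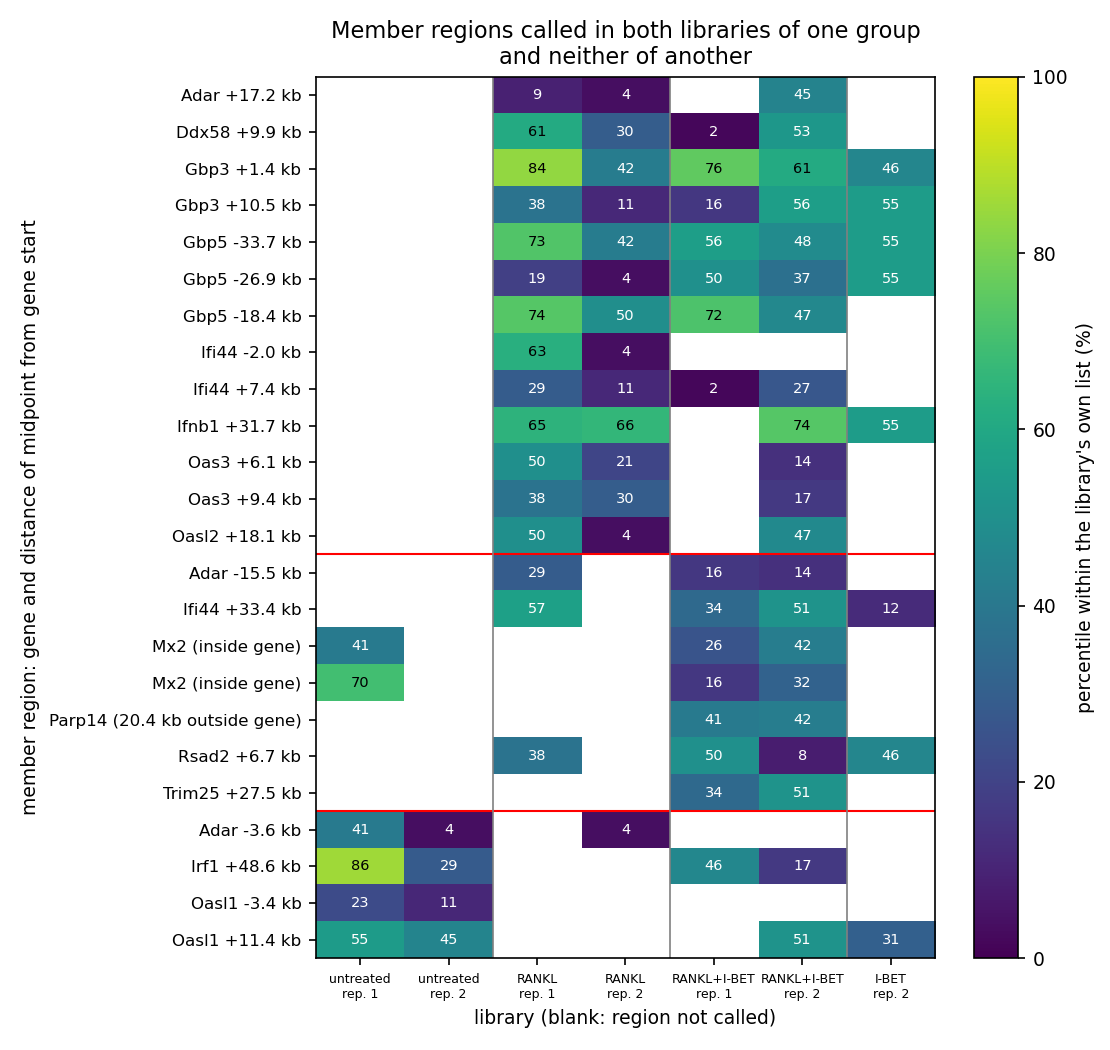
Each row is 1 of the 24 member regions called in both libraries of a group and neither of another, named by gene and by distance of its midpoint from the nearest gene start (kb) or from the gene, and each column is a library. Numbers and colour give the percentile (%) of the peak in its own list and blank cells were not called: rows above the first red line are the 13 RANKL-only regions, and rows below the second are called in both untreated libraries.

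The guanylate binding protein genes on chromosome 3 held 5 of the 13. At Gbp5 a region 33699 bp before the start, chr3:142462909-142463561, had a fold of 5.86 and 4.27 with RANKL, 4.07 and 3.5 with RANKL and I-BET, and 4.26 with I-BET, and no peak in either untreated library. The nearest untreated peak was 11101 bp away. A second region, chr3:142469621-142470395, 26926 bp before the start, had folds of 2.54 and 2.63, then 3.66 and 2.83, and 4.26 in the same order of groups. The third, chr3:142478281-142478804, had 6.06 and 4.93 with RANKL and 6.51 and 3.37 with RANKL and I-BET, and was not called with I-BET alone. By definition none of the 3 overlapped an untreated peak. All 3 were called in both libraries that had RANKL and I-BET together.

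Gbp3 has 2 starts in the promoter table, at 142560044 (the promoter printed above) and at 142560356, and distances are from the nearer one. Inside Gbp3 a region 1370 bp past the start at 142560356, chr3:142561348-142562103, was called in all 5 treated libraries, with folds of 10.6 and 4.27 with RANKL, 7.52 and 4.92 with RANKL and I-BET, and 3.78 with I-BET. It adjoins the Gbp3 start region, chr3:142559500-142561267, which was called in all 7 libraries. In untreated cells that start region had folds of 9.31 and 38, and in treated cells 22.2 to 42.6. Another region, 10518 bp past that same start, chr3:142570638-142571110, had folds of 2.64 to 4.26 in the 5 treated libraries. The Gbp2 start region was called in all 7, and Gbp2 had 0 RANKL-only regions.

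These 4 regions, 2 at Gbp5 and 2 at Gbp3, were the only member regions called in all 5 treated libraries and in neither untreated one. They make 1.04% of the 384 member regions, against 0.402% of all assigned regions, a pattern chosen after the values were seen. Genome-wide 92 genes had at least 2 such regions, so Gbp3 and Gbp5 are not alone in this. Without untreated replicate 2 the count was 21 (5.53% against 4.62% of all regions). It was 7 without the I-BET library (1.93% against 1.01%) and 5 without untreated replicate 1 (1.39% against 0.687%). With a -log10 q of at least 5 it was 0 (0% against 0.263%). With lists of equal length it was 2 (0.673% against 0.366%), and with 50% of the region covered 2 (0.521% against 0.325%). The reverse, both untreated and no treated library, held for 1 member region, at Oasl1 (0.26% against 0.245%).

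Over a window of 190 kb that runs from 45 kb before the Gbp5 start to just past Gbp2, also chosen after the values were seen, untreated replicates 1 and 2 had 9 and 13 peaks. RANKL libraries had 25 and 22, RANKL+I-BET libraries 23 and 22, and the I-BET library 22. The covered length was 3.43 and 6.63 kb in untreated cells, 14.3 and 10.2 kb with RANKL, 12.1 and 12.8 kb with RANKL and I-BET, and 8.55 kb with I-BET. The window also holds Gbp7 and Gbp2b, which are not members, and peaks at them are counted. Untreated and treated libraries did not overlap in either value. Other windows of the genome were not counted, so nothing is read from this separation. Untreated replicate 1 had a longer list (136739 peaks) than RANKL+I-BET replicate 1 (125240), and untreated replicate 2 had the shortest list (117175). In untreated replicate 1, 25.3% of all peaks reached a -log10 q of 5, the lowest share of any list. The part of list length and peak strength in these window counts was not tested.

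**Figure D4:**
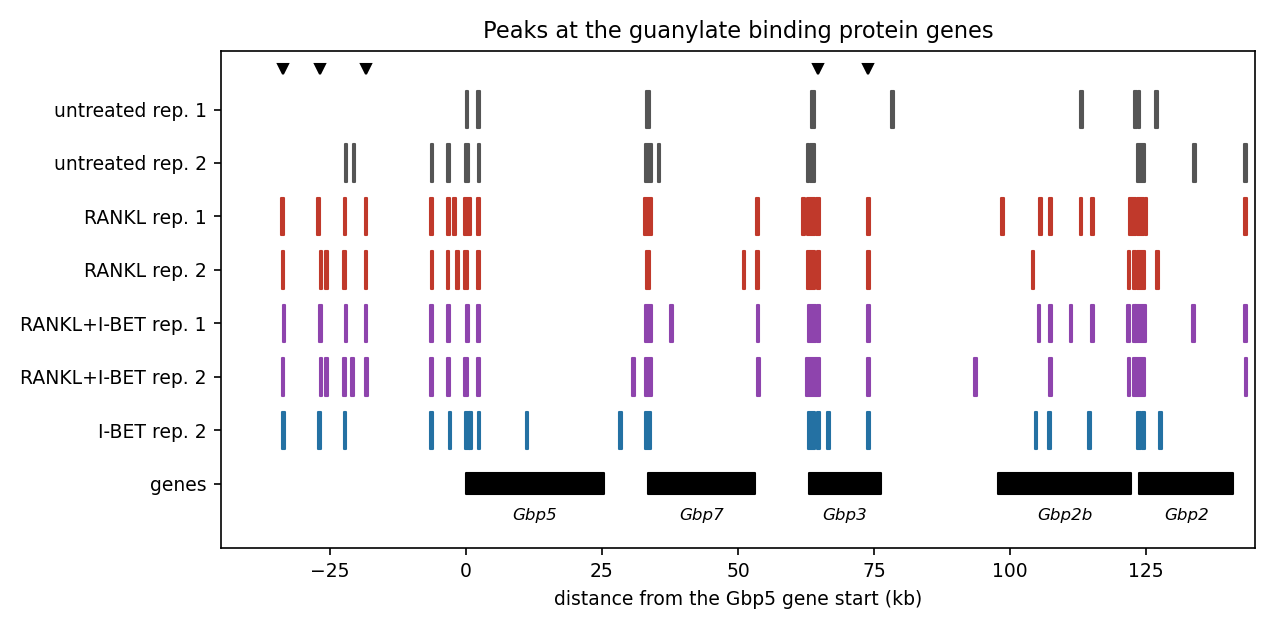
Peaks (bars, at least as wide as the line) in the 7 libraries by distance from the Gbp5 start (kb), with protein-coding genes in black and triangles at the 5 RANKL-only regions of Gbp5 and Gbp3. The untreated rows hold 9 and 13 peaks and the treated rows 22 to 25.

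At Ifnb1 the RANKL-only region lay 31748 bp downstream of the start, at chr4:88490782-88491309. Its fold was 4.49 and 7.88 with RANKL, 8.08 in RANKL+I-BET replicate 2 and 4.26 with I-BET, and it was not called in RANKL+I-BET replicate 1 or in untreated cells. The nearest untreated peak was 10279 bp away. A region 18918 bp downstream, chr4:88503639-88504113, was called in untreated replicate 1 (fold 3.67) and in all 5 treated libraries (2.84 to 6.64) and was missing from untreated replicate 2. All 7 libraries shared 3 regions, of which chr4:88515454-88516428, 6853 bp downstream of the start, had folds of 5.08 and 27.4 in untreated cells and 8.95 to 24 in treated cells. By definition the shared regions were called in untreated cells, and the RANKL-only site at 31748 bp was not.

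**Figure D5:**
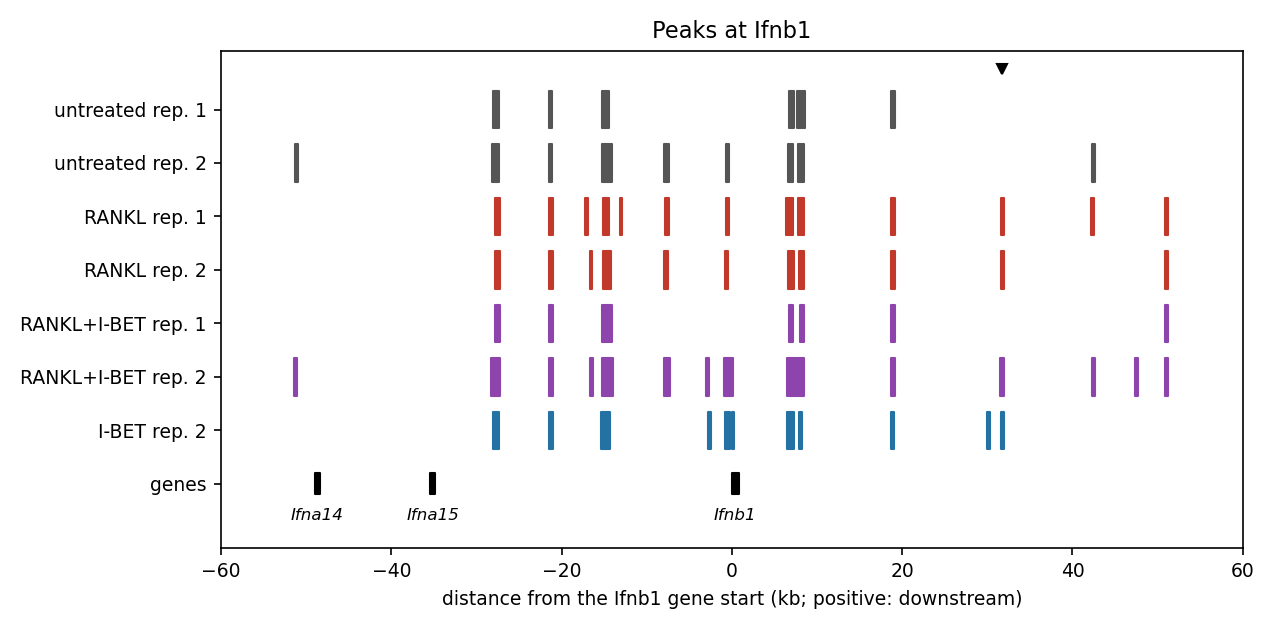
Peaks (bars) in the 7 libraries by distance from the Ifnb1 start (kb, positive downstream), with protein-coding genes in black and a triangle at the RANKL-only region. That region, 31748 bp downstream, is called in 4 of 5 treated libraries and in 0 of 2 untreated ones.

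The remaining RANKL-only regions were at sensors and effectors. At Ddx58 a region 9885 bp past the start, chr4:40229711-40230169, had folds of 4.1 and 3.61 with RANKL and 2.24 and 3.91 with RANKL and I-BET. Oas3 had regions 6107 and 9351 bp past the start, with folds of 2.93 to 3.61 in the RANKL libraries and 2.16 and 2.22 in RANKL+I-BET replicate 2. Oasl2, of the same family, had 1 region 2832 bp beyond the gene, with folds of 3.32 and 2.63. At Ifi44, an interferon-induced gene, a region 2009 bp before the start, chr3:151751718-151752119, had folds of 4.3 and 2.63 with RANKL and was called in no other library. The second Ifi44 region, 7401 bp past the start, was called in all 4 libraries with RANKL (2.24 to 2.96) and in 0 of the 3 without. Member regions of this kind numbered 3 (0.781%, against 0.519% of all regions), the others being at Gbp5 and Ddx58, and the reverse held for 0 (0.0258% of all regions). The region in Adar had folds of 2.34 and 2.63.

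Regions called in both untreated libraries and neither RANKL library numbered 3, or 1.08% of member regions, against 0.785% of all regions. The site 40686 bp beyond Irf1, chr11:53818676-53819443, had folds of 7.9 and 3.91 in untreated cells, 3.46 and 2.22 with RANKL and I-BET, and no peak with RANKL or with I-BET alone. Oasl1, which encodes an inhibitor of Irf7 translation, had the other 2. The one 3301 bp before the gene, chr5:114919744-114919940, had folds of 2.82 and 3.2 and was called in no treated library. The one inside it, chr5:114934281-114935000, had 3.38 and 4.98, with further peaks in the second RANKL+I-BET library (3.77) and with I-BET (3.31). With lists cut to equal length untreated-only regions numbered 6 (2.44% against 1.02% of all regions), beside 7 RANKL-only regions (2.85% against 2.75%).

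RANKL with I-BET against RANKL alone asks which sites differ when BET proteins are inhibited during RANKL treatment. Member regions that both libraries with the 2 agents and neither with RANKL alone called numbered 5, or 1.53% of 327, against 1.91% of all regions. Mx2, a dynamin-like antiviral GTPase gene, had 2, and Irf1, Trim25 and Parp14, a gene of an ADP-ribosyltransferase, had 1 each. Both Mx2 regions were also called in untreated replicate 1, with folds of 3.1 and 3.95, and the Irf1 region is the one called in untreated cells. Only Trim25 and Parp14 had a region confined to the RANKL+I-BET libraries, with folds of 3.05 and 3.77 at Trim25 and 3.25 and 3.1 at Parp14. With lists cut to equal length, regions called with RANKL and I-BET and not with RANKL alone numbered 7, 2.98% against 1.42% of all regions. With a -log10 q of at least 5 they numbered 0, against 1.45%. The order of members and background so changed with the setting here too.

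In the reverse direction 1 member region, the one 2009 bp before Ifi44, was called in both RANKL libraries and neither RANKL+I-BET library, 0.306% against 0.568% of all regions. Of the 13 RANKL-only regions 7 (53.8%) were present in both replicates with RANKL and I-BET and 1 in neither, and genome-wide 37.3% of RANKL-only regions were present in both. The 7 were the 5 at Gbp5 and Gbp3, 1 at Ifi44 and the 1 at Ddx58. The other 5, at Ifnb1, Oas3 (2), Oasl2 and Adar, were called in RANKL+I-BET replicate 2 and missing from RANKL+I-BET replicate 1. At these 5 the RANKL+I-BET replicates differed, and the one with the peak had the longer list.

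RANKL with I-BET against untreated cells gave 12 regions in the treated direction, 3.8% against 3.69% of all regions, at 8 members. With 50% of a region covered by peaks there were 20, 6.47% against 3.91%, and with a -log10 q of at least 5 there were 4, 2.17% against 3.91%. The 5 at Gbp5 and Gbp3 were among them, with 2 at Ifi44 and 1 each at Ddx58, Adar, Rsad2, Trim25 and Parp14. The Rsad2 region, 6736 bp past the start, had folds of 3.66 and 2.02 with RANKL and I-BET, 2.93 in RANKL replicate 1 and 3.78 with I-BET. In the other direction there were 2, at Oasl1 and Adar, 0.633% against 0.469%.

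The single I-BET library has no replicate, so its values are given without one. It called 42 member regions that neither untreated library called, 17.5% of 240, against 20.2% of all regions, and the guanylate binding protein genes had 9 of these. It lacked 6 regions called in both untreated libraries (2.5% against 2.48%). Regions called in all 3 libraries with I-BET and in none of the 4 without numbered 0 among members, against 0.148% of all regions, and the reverse numbered 0, against 0.00764%.

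At 22 of 36 members no region was called in both libraries of a group and neither of another in these 3 comparisons. The same count over all protein-coding genes was not made, and 4 members had only 1 region, so nothing is read from this number. The 22 members were Irf7, Irf9, Stat2, Oas1a, Oas2, Mx1, Gbp2, Ifi35, Xaf1, the sensor genes Ifih1, Dhx58 and Zbp1, the 3 Ifit genes, Isg15, Usp18, Eif2ak2 (the RNA-activated kinase PKR), Socs1, Bst2 (tetherin, which holds budding virus at the membrane), Tap1 and Psmb8. Isg15 and Irf7 had 1 region each, over the gene and its start, called in all 7 libraries. The Isg15 start peak had folds of 3.95 and 10.7 in untreated cells, 9.57 and 8.54 with RANKL, 6.3 and 10.4 with RANKL and I-BET, and 6.62 with I-BET. Its percentile was 69.8% and 71.5% in untreated cells and 68.3% to 82.5% in treated ones, and these ranges overlap.

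Another 40 genes of the pathway, from receptors and kinases to further effectors, were counted in the same way, and 39 had a region. They had 14 RANKL-only regions at 11 genes (2.62%, against 3.3% of all regions) and 1 untreated-only region (0.187%, against 0.785%). Jak1 and Jak2, the receptor kinase genes, and Pias1, which encodes a SUMO ligase, had 2 each, and the receptor genes Ifnar1, Ifnar2 and Ifngr2 had 1 each. Stat3 and Irf3 had 0. A gene-start peak was present in all 7 libraries at 30 of 31 with a promoter entry (96.8%, against 53.5% of all protein-coding genes). Gbp7, between Gbp5 and Gbp3, had 1 RANKL-only region.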

How the data were processed

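Peaks were deposited as 1 list per library from untreated, RANKL, RANKL+I-BET and I-BET RAW264.7 cells, with 100 bp paired-end reads per the labels' protocols. Per the submitters' processing notes the build was mm10 and the tools were MACS2, Bowtie2, cutadapt, SAMtools, bedtools, Picard and FastQC. Versions and settings are not given in the sources used here. The deposited fold (a ratio, as the MACS2 peak format defines it) and the deposited -log10 p-values and q-values are the authors' own. The deposited score is the whole part of 10 times the -log10 p. There is 1 list per library and none for pooled samples. Peaks of all lists that overlapped or touched were joined into regions (median 308 bp), and a library called a region with at least 1 bp of peak in it. Genes were the 21887 protein-coding genes in RefSeq's GRCm38.p6 table, and gene starts came from its promoter table. The 36 members and all lists were chosen with earlier results of these data known. Named were members with a region of a one-group pattern, the 5 with most shared regions, those without a gene-start peak, and always Ifnb1, Irf1, Irf7, Irf9, Stat2, Isg15, Rsad2, Ifit1, Mx1 and Socs1. Joining and assignment were tested on simulated data. No test across samples was run, since the lists hold no read counts per region. The alternatives tried were equal list lengths (the strongest 117175 peaks), a minimum -log10 q of 5, 50% coverage of a region, genes within 50 kb, a 250 bp gene-start window and leaving out each library. Python 3.11.15, numpy 2.4.6 and pandas 2.3.3 were used, with matplotlib 3.10.9 for figures. The pattern over all 5 treated libraries was added after the data were seen.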

Additional observations from a re-analysis of the deposited data

How the results depend on the processing

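No paired analysis was possible because the counts of regions come from no test, so there is no fit to which a replicate block could be added. The number of members with a gene-start peak in all 7 libraries moved least, at 24 with a -log10 q of at least 5, 27 with lists of equal length, 26 with a 250 bp window and 27 to 27 without single libraries. Genes within 50 kb left all counts as they were. With a -log10 q of at least 5 RANKL-only regions numbered 2 (1.61% against 4.28% of all regions) and untreated-only 0 (0% against 0.129%). RANKL+I-BET-only against RANKL numbered 0 (0% against 1.45%), and RANKL-only against RANKL+I-BET 0 (0% against 0.011%). RANKL+I-BET-only against untreated numbered 4 (2.17% against 3.91%), and untreated-only against RANKL+I-BET 0 (0% against 0.00425%). Those in every treated and no untreated library numbered 0 (0% against 0.263%), and those in all 7 libraries 50 (26.9% against 22.2%). With lists of equal length RANKL-only regions numbered 7 (2.85% against 2.75% of all regions) and untreated-only 6 (2.44% against 1.02%). RANKL+I-BET-only against RANKL numbered 7 (2.98% against 1.42%). RANKL-only against RANKL+I-BET numbered 2 (0.851% against 0.665%), and those in every treated and no untreated library 2 (0.673% against 0.366%). With 50% of the region covered RANKL-only regions numbered 18 (7.14% against 3.68% of all regions) and untreated-only 1 (0.397% against 0.501%). At this coverage RANKL+I-BET-only against RANKL numbered 4 (1.23% against 1.77%), and RANKL-only against RANKL+I-BET 2 (0.617% against 0.407%). RANKL+I-BET-only against untreated numbered 20 (6.47% against 3.91%), and untreated-only against RANKL+I-BET 1 (0.324% against 0.288%). Those in every treated and no untreated library numbered 2 (0.521% against 0.325%), and those in all 7 libraries 30 (7.81% against 6.28%).

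Leaving out 1 library, which relaxes what a pattern asks, gave 13 to 60 RANKL-only regions (60 without RANKL replicate 2, 38 without RANKL replicate 1, 37 without untreated replicate 2) and 3 to 35 untreated-only ones (35 without untreated replicate 2, 13.5% against 25.8%). RANKL+I-BET-only against RANKL ran from 5 to 89 (89 without RANKL+I-BET replicate 1, 28.4% against 21%), RANKL-only against RANKL+I-BET from 1 to 34 (34 without RANKL replicate 2, 10.8% against 16.5%), RANKL+I-BET-only against untreated from 11 to 104 (104 without RANKL+I-BET replicate 1, 34.2% against 26%), untreated-only against RANKL+I-BET from 2 to 32 (32 without untreated replicate 2, 10.3% against 23.4%), every treated and no untreated library from 4 to 21 (21 without untreated replicate 2, 5.53% against 4.62%, and 7 without I-BET replicate 2), and all libraries from 77 to 94. Without RANKL replicate 2 the RANKL-only share was 23.1% of member regions against 22.5% of all regions. Each one-group count so moved by over 1.5 times without at least 1 library, and read depth, which is not given, limits what a missing call means.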
